A study of Mus musculus with 9 samples.

Results

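The heat shock response and the unfolded protein response were followed through 41 genes, taken by symbol from a count table of 55335 mouse genes. They comprise 26 genes of the endoplasmic reticulum (ER) branch and 15 of the cytosolic and mitochondrial branch. The ER genes were 14 folding factors (Hspa5, Hsp90b1, Calr, Canx, Pdia3, Pdia4, Pdia6, Manf, Creld2, Sdf2l1, Dnajb9, Dnajb11, Dnajc3 and Hyou1), 4 genes of ER-associated degradation (Herpud1, Sel1l, Syvn1 and Edem1) and 8 stress sensors and transcription factors (Xbp1, Atf4, Atf5, Ddit3, Atf6, Ern1, Eif2ak3 and Trib3). The others were 12 cytosolic chaperones and cochaperones (Hspa1a, Hspa1b, Hspa8, Hsp90aa1, Hsp90ab1, Hspb1, Cryab, Dnaja1, Dnajb1, Hsph1, Bag3 and Hspa4), the transcription factor Hsf1, and the mitochondrial pair Hspd1 and Hspe1. All 41 genes were in the table and all passed the filter on low counts, which kept 18259 genes for testing.

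Cells meet misfolded proteins with separate programmes in separate compartments. In the ER, the membrane sensors IRE1 (encoded by Ern1), PERK (encoded by Eif2ak3) and ATF6 detect unfolded proteins. They act through the transcription factors XBP1, ATF4 and cleaved ATF6 to raise ER chaperones, disulfide isomerases and the machinery that exports misfolded proteins for degradation. In the cytosol and nucleus, the factor HSF1 raises the HSP70, HSP90 and small heat shock proteins. Skeletal muscle has high levels of the small heat shock proteins Cryab and Hspb1 and of the cochaperone Bag3, which tend the contractile filaments, while secretory cells such as plasma cells and active fibroblasts carry much of a tissue's ER folding machinery.

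RNA came from leg muscle of 9 WT mice of the strain the labels write as c57b6l, 3 mice in each group and 1 library per mouse. Every mouse, controls included, had the injury labelled hindlimb suspension ischemia. The control group received no treatment, the aspirin group received aspirin (acetylsalicylic acid, an inhibitor of the cyclooxygenases), and the hydrogel group received aspirin together with a peptide hydrogel. Age, sex, dose and the time after injury are not given in the labels, and mice without injury or with hydrogel alone were not analysed here. The design text counts 3 mice per group, and each sample carries a code of unstated meaning that differs between groups and sets aspirin replicate 3 apart from aspirin replicates 1 and 2. No code is shared between groups, so between groups anything it marks cannot be told apart from treatment.

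Total counts per library ran from 32197791 to 48170537. At this depth a gene without a count lay below 0.0554 to 0.1 CPM, counts relative to a library size scaled by the trimmed mean of M values (TMM), taking 3 counts as the limit and covering counting error only. The libraries hold leg muscle by their markers: 12 of 12 muscle fibre markers were detected in every library. Their summed level was 26510 CPM in aspirin replicate 1 and 111400 to 352900 CPM in the other 8 libraries, so aspirin replicate 1 stood apart. That library also held the highest sum of 9 B and plasma cell markers, 8437 CPM against 64.71 to 756.3 CPM in the other 8, with the antibody light chain Igkc at 6010 CPM and Jchain at 919 CPM. In bulk tissue, fewer cells of a type and less RNA per cell cannot be told apart.

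The promoters of the members were searched for known elements. ATF6 is known to bind the ER stress response element (ERSE), and HSF1 the heat shock element (HSE). RefSeq promoters on GRCm38.p6 were available for 33 of the 41 genes, and the 250 bases before each annotated start were searched on both strands. The ERSE letters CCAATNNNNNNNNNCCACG were found in 7 of 12 ER folding genes with a promoter (Hspa5, Hsp90b1, Calr, Canx, Pdia6, Creld2 and Dnajc3), in Syvn1 among the 4 ER degradation genes, in 0 of 7 sensors and factors, in 0 of 8 cytosolic genes, and in 0.113% of all 32851 promoters of the same length. Positions below count bases before the RefSeq start. For Hspa5 (chr2:34771913-34772063, plus strand), the stretch holds the ERSE at position 65 and the letters TGACGTG of the XBP1 element at position 157, which 1.65% of all promoters hold. The GENCODE vM21 model of Hspa5 begins inside this stretch. Hsp90b1 (chr10:86705513-86705676, minus strand) holds 2 ERSE matches, on opposite strands, and Creld2 (chr15:88819500-88819558, plus strand), Pdia6 (chr12:17266471-17266529, plus strand) and Syvn1 (chr19:6046512-6046570, plus strand) hold 1 each. The related letters ATTGGNCCACG (ERSE-II) were found in Herpud1 (chr8:94386357-94386407, plus strand) and in 0.0304% of all promoters. No ERSE match overlapped an ERSE-II match. The stretches of Calr, Canx and Dnajc3 are not printed. Pdia4, Manf and Sdf2l1 are not among the genes with a match, for lack of a match or of an available promoter. Which members hold the element was not tested against their differences between groups. The sequences are printed 5′ to 3′ on the gene's strand, and capitals mark the fixed letters of each match.
Hspa5: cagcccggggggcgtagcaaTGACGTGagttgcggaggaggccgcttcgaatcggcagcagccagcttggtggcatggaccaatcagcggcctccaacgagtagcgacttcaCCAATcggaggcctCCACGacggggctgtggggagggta
Hsp90b1: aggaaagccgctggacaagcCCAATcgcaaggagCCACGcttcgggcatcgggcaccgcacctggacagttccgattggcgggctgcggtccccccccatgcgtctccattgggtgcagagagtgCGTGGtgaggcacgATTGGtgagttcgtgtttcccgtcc
Creld2: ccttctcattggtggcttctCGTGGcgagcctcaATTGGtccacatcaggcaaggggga
Pdia6: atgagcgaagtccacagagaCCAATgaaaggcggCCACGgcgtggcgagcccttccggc
Syvn1: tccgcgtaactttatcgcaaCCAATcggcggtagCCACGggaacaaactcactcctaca
Herpud1: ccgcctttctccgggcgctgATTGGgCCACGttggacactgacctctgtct

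The HSE was searched as GAANNTTCNNGAA, 3 alternating repeats, on both strands. It was found in 0 of 8 cytosolic genes with a promoter, in both mitochondrial chaperonin genes, Hspe1 and Hspd1, and in 0.466% of all promoters. These genes are read in opposite directions, and the stretch (chr1:55088039-55088096) lies between their RefSeq starts and inside the longer GENCODE vM21 model of Hspd1. Capitals mark the repeats, which hold 2 overlapping matches, and the stretch is printed on the strand of Hspe1. These matches describe letters and were not tested as binding sites. Cytosolic genes without an available promoter were not searched, nor were imperfect repeats or bases further upstream. The search therefore does not show that the cytosolic genes lack the element.
Hspe1: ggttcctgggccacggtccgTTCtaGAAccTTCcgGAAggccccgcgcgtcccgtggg

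Levels were compared between genes in the deposited FPKM, which are scaled by gene length. In the controls, the cytosolic Hsp90ab1 stood highest at 328 ± 40.5 FPKM (SD, n = 3), followed by Hspa8, the constitutive HSP70, at 163 ± 33.5 FPKM. Hsp90ab1 lay above Hspa8 in each control without overlap. Next came the ER calcium-binding chaperone Calr at 103 ± 31.96 FPKM, then Cryab at 86.0 ± 19.3, Hspb1 at 65.1 ± 11.6 and Hspd1 at 61.2 ± 2.67 FPKM, and the control ranges of neighbours in this order overlapped. Among ER chaperones, Hsp90b1 (50.7 ± 15.6 FPKM), Pdia3 (48.9 ± 20.4 FPKM) and Hspa5 (41.3 ± 7.76 FPKM) also overlapped one another. The inducible HSP70 genes stood near the bottom, Hspa1b at 1.73 ± 0.870 and Hspa1a at 1.58 ± 0.648 FPKM. Trib3, a pseudokinase induced by ATF4 and CHOP, was the lowest of the 41 at 0.486 ± 0.103 FPKM, and each control value of Ern1, the next gene up at 1.57 ± 0.270 FPKM, lay above all 3 of Trib3.

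The members differed between libraries of the aspirin group. For each gene and library the log2 ratio of CPM to the control mean was taken, and its median over the 14 ER folding genes was 0.89 in aspirin replicate 1, 0.89 in aspirin replicate 2 and 0.19 in aspirin replicate 3. The same median was 0.17, -0.21 and 0.11 in the 3 controls and 0.07, -0.07 and -0.20 in the 3 hydrogel libraries. Aspirin replicates 1 and 2 were thus far above the other 7 libraries, and aspirin replicate 3 lay just above the highest control. The sample code splits the aspirin group in the same way, and its part in this was not tested. Over the 12 cytosolic genes the median was -0.12, 0.89 and 0.12 in aspirin replicates 1, 2 and 3, -0.06, -0.07 and 0.26 in the controls, and 0.12, -0.07 and 0.36 in the hydrogel libraries. Here aspirin replicate 2 alone stood out, and aspirin replicate 1 was the lowest of the 9. The median over all tested genes was between -0.04 and 0.04 in every library.

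**Figure D1:**
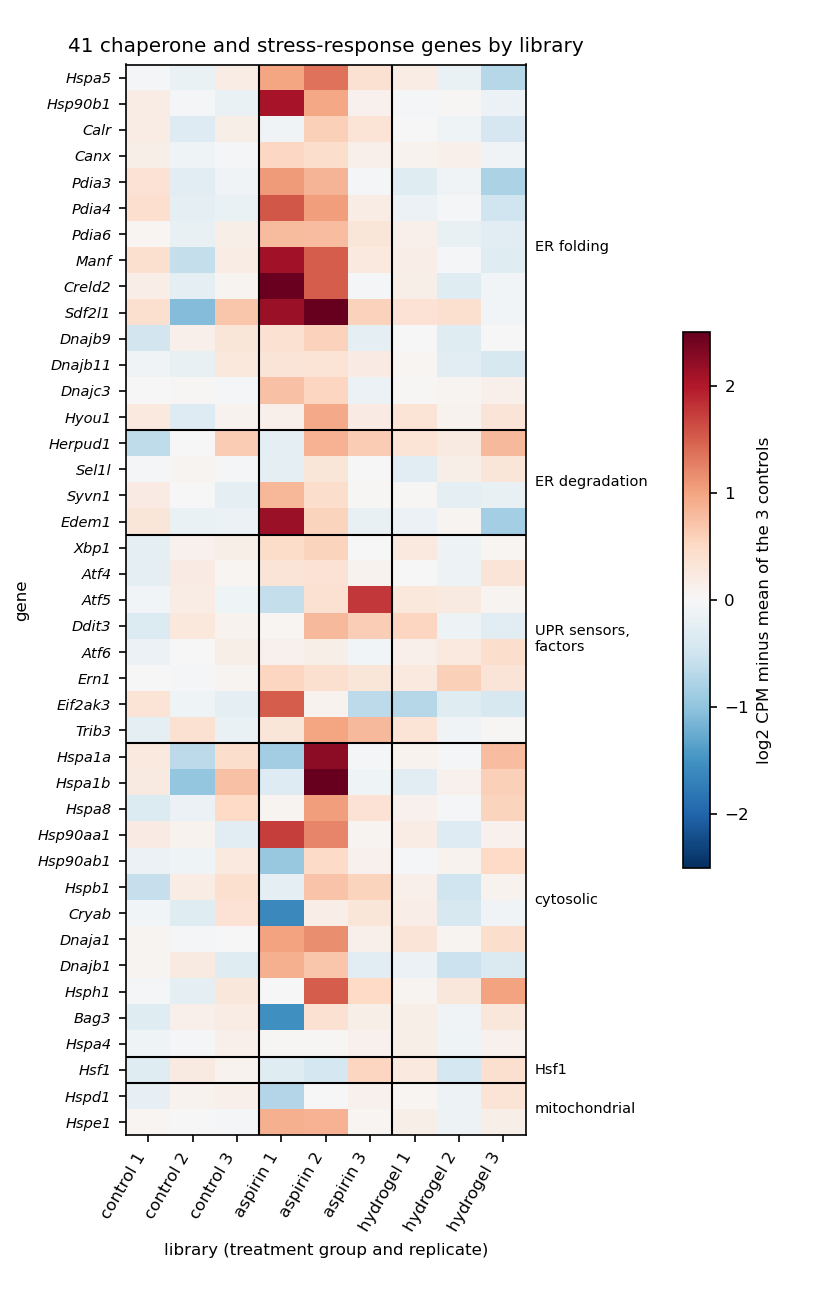
Log2 CPM of the 41 genes (rows, ordered by role) in the 9 libraries (columns), minus the mean of the 3 controls. Red is above and blue below the control mean. Aspirin replicates 1 and 2 are red across the ER folding block except for Calr in replicate 1, while in the cytosolic block aspirin replicate 1 holds both red and blue genes.

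Aspirin replicates 1 and 2 were the 2 highest of the 9 libraries for 12 of the 14 ER folding genes, the exceptions being Calr and Hyou1. Across all tested genes 10.3% had these 2 libraries at the top. The count was 2 of 4 for ER degradation, 1 of 8 for sensors and factors, 3 of 12 for the cytosolic genes (Hsp90aa1, Dnaja1 and Dnajb1) and 1 of 2 for the mitochondrial pair (Hspe1). Over the 41 genes, 14 were highest in aspirin replicate 1 and 18 in aspirin replicate 2, against 29.2% and 9.15% of all genes, and 2 in aspirin replicate 3 (Atf5 and Hsf1).

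**Figure D2:**
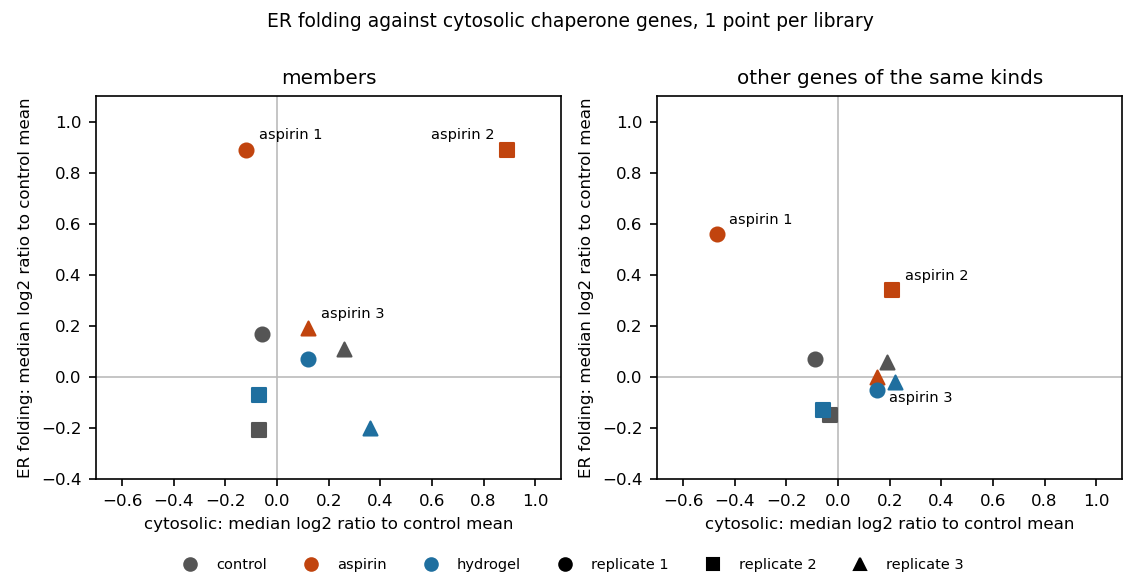
Median log2 ratio to the control mean of ER folding genes (vertical axis) against that of cytosolic chaperone genes (horizontal axis), 1 point per library, coloured by group and shaped by replicate number. Left, the 14 and 12 genes followed here; right, 34 and 51 further genes of the same kinds. On the left, aspirin replicates 1 and 2 share an ER median of 0.89 and lie apart on the cytosolic axis, at -0.12 and 0.89.

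The aspirin group was set against the controls to ask how the drug alone bears on these genes in injured muscle. With edgeR's quasi-likelihood test and Benjamini-Hochberg adjustment, none of the 18259 genes reached the threshold of 0.05 (0.0% called), and the smallest adjusted p among the 41 was 0.753. DESeq2 called 102 genes in this comparison and none of the 41, with Sdf2l1 the nearest at an adjusted p of 0.143. At an unadjusted p below 0.05, 11 of the 41 were higher after aspirin and 0 were lower, against 3.09% and 3.39% of all genes. These were the ER folding genes Hspa5, Hsp90b1, Pdia4, Pdia6, Manf, Creld2 and Sdf2l1, the sensor Ern1, the cytosolic Hsp90aa1 and Dnaja1, and the mitochondrial Hspe1. The fitted log2 fold change was above 0 for 36 of 41 genes, with a median of 0.50, against 54.0% of all genes and a median of 0.05. Groups did not overlap, aspirin above control, for 5 genes (Hspa5, Pdia6, Ern1, Dnaja1 and Hspe1) and in the other direction for 0, where 5.54% and 5.44% of all genes did. The count of 11 moved to 7, 5 and 6 without control replicate 1, 2 or 3, where 2.86%, 1.48% and 2.51% of all genes were higher. It moved to 7 without aspirin replicate 2 (3.19% of all genes) and to 18 without aspirin replicate 3, where the share over all genes was also larger, at 7.58%.

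The hydrogel group was set against aspirin alone to ask what the peptide hydrogel adds. No gene was called (0.0%), and the smallest adjusted p among the 41 was 0.453 in edgeR. DESeq2 called 156 genes and none of the 41, with Hspa5 nearest at an adjusted p of 0.0541. At an unadjusted p below 0.05, 14 of the 41 were lower with the hydrogel and 0 higher, against 7.61% and 3.32% of all genes. They were 9 of the 14 ER folding genes (Hspa5, Hsp90b1, Pdia3, Pdia4, Pdia6, Manf, Creld2, Sdf2l1 and Dnajb11), Syvn1, Edem1, Hsp90aa1, Dnajb1 and Hspe1. The hydrogel libraries lay wholly below the aspirin libraries for 10 genes and wholly above for 0, against 8.75% and 7.46% of all genes. Of these 10, 9 were ER folding genes (Hspa5, Hsp90b1, Canx, Pdia3, Pdia4, Pdia6, Manf, Sdf2l1 and Dnajb11), the other was Syvn1, and none was cytosolic or mitochondrial. Some margins were narrow, with aspirin replicate 3 close to the highest hydrogel library. For Canx these were at 137.2 and 135.8 CPM, for Pdia3 at 156.2 and 149.5 CPM, and for Manf at 30.07 and 28.28 CPM. The count of 14 moved to 9 without hydrogel replicate 2 and to 7 without hydrogel replicate 3, where the share of all genes fell to 5.73% and 3.09%. Without aspirin replicate 1, 2 or 3 it was 10, 10 and 18, where 2.9%, 7.12% and 12.7% of all genes were lower. This comparison and the previous one share the aspirin libraries, so their values are not independent.

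Between the hydrogel group and the controls the 41 genes lay close together. No gene was called (0.0%), the smallest adjusted p among the 41 was 0.987 in edgeR, and DESeq2 called 18 genes and none of the 41. At an unadjusted p below 0.05 there were 0 of the 41 in either direction, against 1.74% of all genes higher and 2.18% lower. The fitted log2 fold changes ran from -0.49 (Eif2ak3) to 0.49 (Hsph1). They had a median of 0.05 with 24 of 41 above 0, against -0.03 and 47.1% for all genes. With scaling by library size alone the median was -0.18 with 5 of 41 above 0 (all genes -0.25), and without hydrogel replicate 3 it was -0.03 with 14 of 41. Groups did not overlap for Dnajc3 and Ern1, higher with the hydrogel, and for Eif2ak3, lower, where 6.85% and 6.3% of all genes did. The margin for Dnajc3 was narrow, at 52.73 CPM in hydrogel replicate 1 against 52.45 CPM in control replicate 2. In the test of any difference among the 3 groups, edgeR called no gene (0.0%), 12 of the 41 had an unadjusted p below 0.05, against 6.97% of all genes, and their adjusted p values ran from 0.659 to 0.992.

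**Figure D3:**
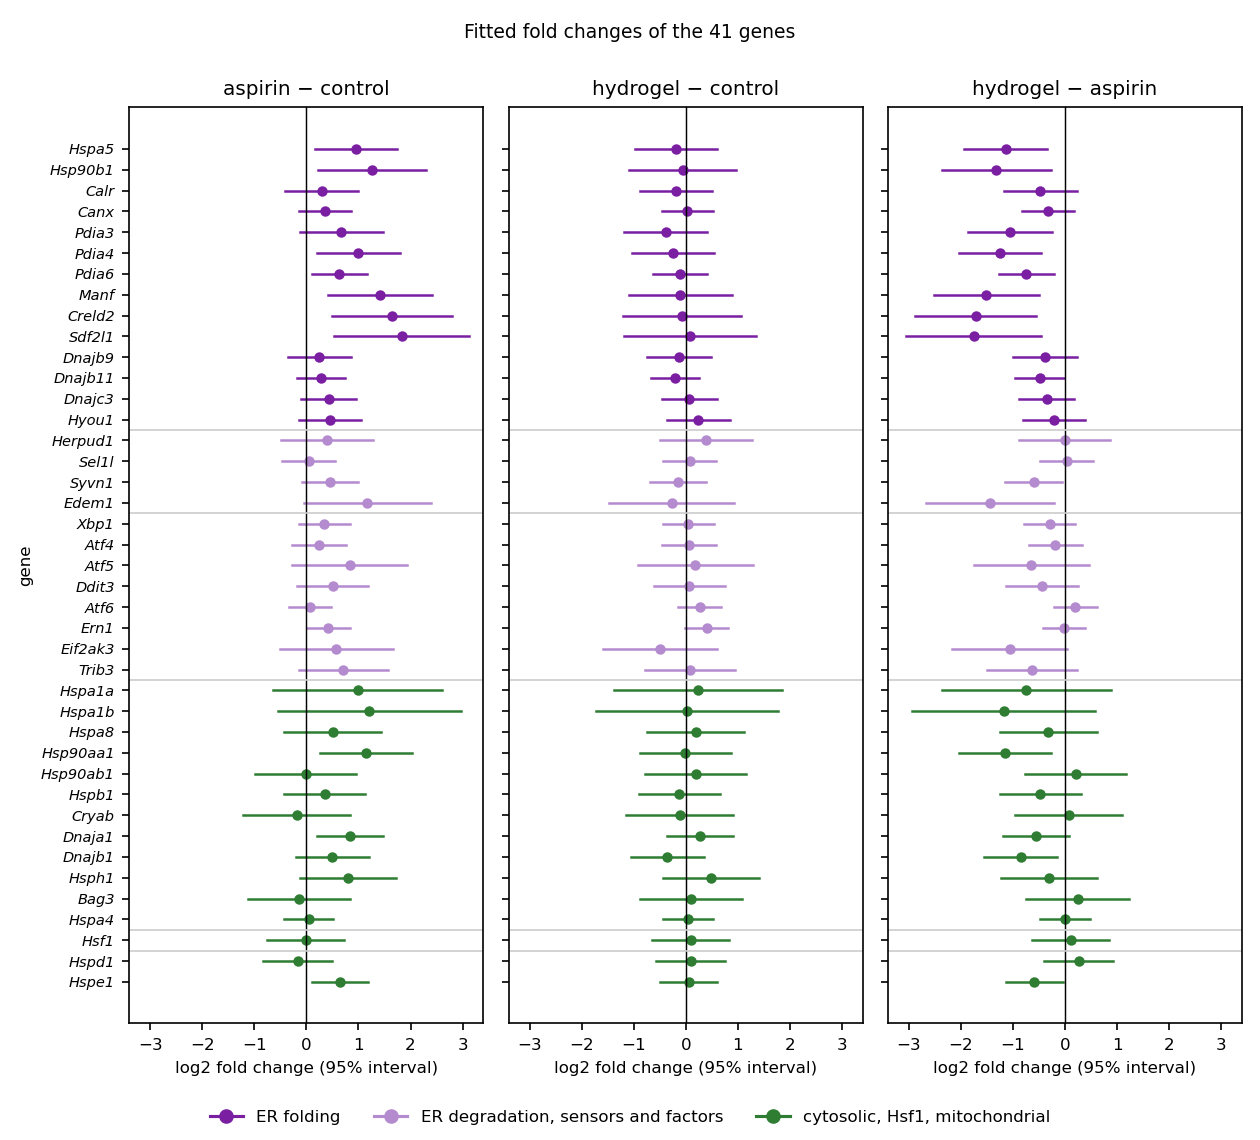
Fitted log2 fold changes of the 41 genes (points) with 95% intervals (lines) from edgeR for the 3 comparisons, with genes in rows ordered by role and coloured by compartment. In aspirin minus control every ER folding gene (dark purple) lies right of 0, and in hydrogel minus aspirin every one lies left of 0, while the intervals of most genes cross 0.

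By role, the ER folding genes had the largest median differences. Their median log2 fold change was 0.65 for aspirin against control (14 of 14 above 0), -0.90 for hydrogel against aspirin (0 of 14 above 0) and -0.11 for hydrogel against control (4 of 14). Over all genes 54.0%, 46.7% and 47.1% lay above 0 in these comparisons. The 12 cytosolic genes had medians of 0.50 (9 of 12 above 0), -0.40 (4 of 12) and 0.08 (8 of 12) in the same order. Without aspirin replicate 2 the cytosolic median was 0.11 for aspirin against control and 0.13 for hydrogel against aspirin, while the ER folding median was 0.57 and -0.77. The ER folding median minus the cytosolic median was 0.15, -0.50 and -0.18 in that order, where the pooled SD of the same difference between libraries of a group was 0.392. Leaving out single libraries moved the difference for aspirin against control between -0.08 and 0.47. The SD is between single libraries and is not the error of a difference between groups. For aspirin against control the sign of the difference was not held when libraries were left out. For hydrogel against aspirin it ran from -0.907 to -0.102. Of the aspirin libraries, replicate 1 alone had an ER folding median (0.89) far above the cytosolic one (-0.12). Whether ER genes exceeded cytosolic genes after aspirin was not tested. ER degradation genes had medians of 0.43, -0.30 and -0.03, sensors and factors 0.46, -0.37 and 0.07, and the mitochondrial pair 0.24, -0.16 and 0.08, again in that order. Scaling by library size alone in place of TMM moved the median of all genes to 0.27, -0.51 and -0.25 in that order, and with it the ER folding medians to 0.94, -1.41 and -0.33, the last with 0 of 14 above 0.

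Among the ER folding genes, Hspa5 (chr2:34771970-34777547 on mm10) encodes BiP, the HSP70 of the ER lumen that also restrains the stress sensors. It stood at 186.5, 167 and 215 CPM in the controls, 372, 481 and 245.5 CPM after aspirin and 215, 168 and 115 CPM with the hydrogel. Every aspirin library lay above every other library, and the hydrogel and control ranges overlapped. The log2 fold change was 0.95 ± 0.35 (SE) for aspirin against control and -1.14 ± 0.35 for hydrogel against aspirin, with adjusted p of 0.753 and 0.453 in edgeR.

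Hsp90b1 (chr10:86690209-86705509) encodes GRP94, the HSP90 of the ER. Its values were 247, 212 and 192 CPM in the controls, 909, 421 and 232.5 CPM after aspirin, and 213, 219 and 196 CPM with the hydrogel. Aspirin replicate 1 was the highest by a wide margin, at 4.18 times the control mean, and aspirin replicate 3 fell within the control range. Without aspirin replicate 1 the log2 fold change against control was 0.58 in place of 1.26 ± 0.46. The exons of Hsp90b1 overlap 415 bases of the pseudogene 1810014B01Rik on the opposite strand.

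The protein disulfide isomerases form and rearrange disulfide bonds in the ER. Pdia4 stood at 53.8, 34.0 and 35.9 CPM in the controls, 118, 83.5 and 45.7 CPM after aspirin, and 36.4, 38.9 and 28.7 CPM with the hydrogel. Pdia3, which works with the lectin chaperones on glycoproteins, stood at 204, 131 and 149.5 CPM, then 332, 283 and 156 CPM, then 129, 149.5 and 92.1 CPM. Pdia6 stood at 87.9, 74.2 and 92.9 CPM, then 147, 145 and 104 CPM, then 91.8, 74.1 and 70.5 CPM. For all 3 isomerases every aspirin library was above every hydrogel library, and for Pdia6 every aspirin library was also above every control. The log2 fold changes of hydrogel against aspirin were -1.25 ± 0.35 for Pdia4, -1.06 ± 0.36 for Pdia3 and -0.74 ± 0.23 for Pdia6, each with an adjusted p of 0.453 in edgeR.

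Manf, Creld2 and Sdf2l1 are small ER proteins known as sensitive targets of ER stress. Manf, a secreted ER-resident protein, stood at 33.5, 16.7 and 28.7 CPM in the controls, 108, 71.9 and 30.1 CPM after aspirin, and 28.3, 24.8 and 20.4 CPM with the hydrogel. Creld2 stood at 10.5, 8.02 and 9.74 CPM, then 51.9, 26.6 and 9.23 CPM, then 10.3, 7.53 and 8.91 CPM. Sdf2l1, a partner of the ER HSP40 cochaperones, stood at 4.86, 1.72 and 5.93 CPM, then 16.4, 22.6 and 5.46 CPM, then 4.77, 4.90 and 3.54 CPM. In each gene aspirin replicates 1 and 2 lay above the other 7 libraries and aspirin replicate 3 inside the control range.

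These 3 genes had the largest fitted differences of the 41 for aspirin against control, 1.41 ± 0.44 for Manf, 1.64 ± 0.51 for Creld2 and 1.83 ± 0.57 for Sdf2l1 on the log2 scale. For hydrogel against aspirin they were -1.51 ± 0.44, -1.71 ± 0.51 and -1.75 ± 0.57. Creld2 reached 5.51 times the control mean in aspirin replicate 1 and Sdf2l1 5.43 times in aspirin replicate 2, the widest ratios of the 41 genes. Without aspirin replicate 1 the values against control were 0.95 for Manf and 0.92 for Creld2. For Manf the exons overlap 146 bases of Dcaf1 on the opposite strand, and whether the counting used strand is not given.

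**Figure D4:**
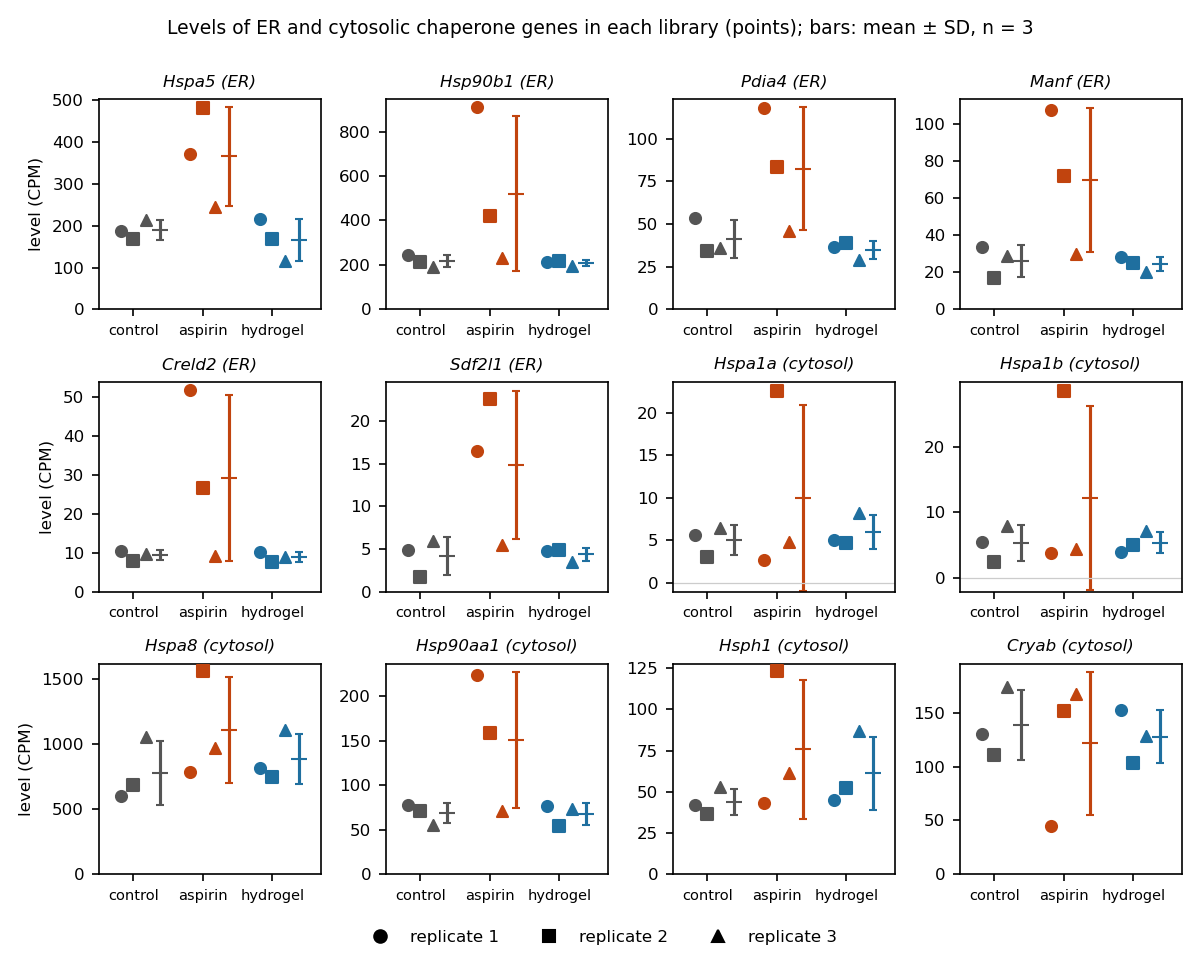
Level in CPM (vertical axis, linear) of 6 ER genes and 6 cytosolic chaperone genes in each of the 9 libraries, points shaped by replicate, with the mean ± SD of each group beside them (n = 3). Aspirin replicates 1 and 2 are high for the ER genes, whereas Hspa1a, Hspa1b, Hspa8 and Hsph1 are high in aspirin replicate 2 and Cryab is low in aspirin replicate 1.

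The HSP40 cochaperones of the ER differed less. Dnajb11, a BiP partner, stood at 46.4, 43.4 and 59.2 CPM in the controls, 61.6, 62.9 and 56.6 CPM after aspirin, and 51.1, 40.5 and 37.4 CPM with the hydrogel, with all aspirin values above all hydrogel values. Dnajb9 and Dnajc3, which restrain the IRE1 and PERK branches, had log2 fold changes of 0.25 ± 0.27 and 0.43 ± 0.24 for aspirin against control. The lectin chaperones Calr and Canx, which hold glycoproteins during folding, had 0.29 ± 0.31 and 0.36 ± 0.22, and Hyou1, a nucleotide exchange factor for BiP, 0.45 ± 0.27. Calr, the ER folding gene of highest level, stood in aspirin replicate 1 at 0.929 times the control mean, the lone value below the control mean among the 14 genes in that library.

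ER-associated degradation passes misfolded proteins from the ER to the proteasome. Edem1, which marks glycoproteins for disposal, stood at 31.8, 23.0 and 23.3 CPM in the controls, 115, 38.04 and 22.6 CPM after aspirin, and 23.4, 27.0 and 14.4 CPM with the hydrogel. It was high in aspirin replicate 1, and its log2 fold change of 1.17 ± 0.54 against control was 0.21 without that library. Syvn1, the ubiquitin ligase of the pathway, stood at 30.0, 26.1 and 22.1 CPM, then 45.89, 35.18 and 26.35 CPM, then 26.32, 21.76 and 22.73 CPM. Aspirin replicate 3 and hydrogel replicate 1 were nearly equal for Syvn1, so the groups did not overlap by a narrow margin. Herpud1 and Sel1l, parts of the same ligase complex, had log2 fold changes of 0.40 ± 0.39 and 0.04 ± 0.22 for aspirin against control. The Herpud1 controls alone spread from 44.3 to 107.7 CPM.

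The sensors and transcription factors had smaller differences than the leading folding genes. Ern1 stood at 13.8, 13.5 and 14.5 CPM in the controls, 20.3, 18.5 and 17.1 CPM after aspirin, and 16.6, 21.1 and 17.5 CPM with the hydrogel. Both treated groups lay wholly above the controls and overlapped each other, with log2 fold changes of 0.42 ± 0.18 and 0.40 ± 0.18 against control (edgeR adjusted p 0.753 and 0.987). The controls are shared by these comparisons.

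Xbp1, whose mRNA is spliced by IRE1, stood at 25.8, 33.3 and 33.9 CPM in the controls, 42.3, 44.9 and 30.9 CPM after aspirin and 36.2, 28.3 and 31.8 CPM with the hydrogel. Atf4, controlled mainly through its translation, stood at 80.9, 109.7 and 98.2 CPM, then 119, 123 and 101 CPM, then 95.03, 87.3 and 119 CPM. Ddit3, which encodes the factor CHOP, stood at 11.3, 17.1 and 15.1 CPM, then 14.7, 25.3 and 21.7 CPM, then 20.7, 13.1 and 11.7 CPM. All 3 factors overlapped between all groups, and the counts hold no reading of Xbp1 splicing or of protein activity.

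Of the other sensors and factors, Eif2ak3 and Atf5 each had a library that stood apart. Eif2ak3 was high in aspirin replicate 1, at 38.6 CPM against 8.25 to 17.2 CPM in the other 8. Atf5, a factor of the mitochondrial and integrated stress responses, was high in aspirin replicate 3, at 80.6 CPM or 3.39 times the control mean. Atf6 had log2 fold changes of 0.07 ± 0.18 for aspirin and 0.27 ± 0.18 for hydrogel against control. Trib3 had 0.71 ± 0.38 for aspirin against control, at mean levels of 1.87 ± 0.431 and 1.14 ± 0.289 CPM (SD, n = 3).

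The cytosolic chaperones did not form 1 block. The inducible HSP70 genes Hspa1a and Hspa1b, the classical readout of HSF1, were high in aspirin replicate 2 alone, and aspirin replicate 3 lay within the control range. Hspa1a stood at 5.66, 3.02 and 6.46 CPM in the controls, 2.63, 22.5 and 4.74 CPM after aspirin, and 5.06, 4.62 and 8.21 CPM with the hydrogel. Hspa1b stood at 5.53, 2.41 and 7.88 CPM, then 3.74, 28.4 and 4.37 CPM, then 3.94, 5.05 and 7.14 CPM. Their log2 fold changes of 0.98 ± 0.72 and 1.21 ± 0.78 for aspirin against control turned to -0.46 and -0.38 without aspirin replicate 2. Of the windows of 100 bases, 48.6% in Hspa1a and 49.9% in Hspa1b also occur in other genes, chiefly in each other, so the split of reads between them is uncertain.

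Hspa8 and Hsph1 were also highest in aspirin replicate 2. Hspa8 stood at 597, 680.4 and 1056 CPM in the controls, 786.5, 1564 and 969 CPM after aspirin, and 811.5, 745 and 1106 CPM with the hydrogel. Its copies elsewhere in the genome hold 31.6% of its 100-base windows, and its log2 fold change of 0.51 ± 0.41 for aspirin against control was 0.17 without aspirin replicate 2. Hsph1, the HSP110 exchange factor, was at 123 CPM in aspirin replicate 2, 2.82 times the control mean, and at 42.9 and 61.4 CPM in aspirin replicates 1 and 3. Hspa4, another exchange factor, did not share this and stayed between 127 and 152.5 CPM in all 9 libraries.

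Hsp90aa1 and Hsp90ab1 encode the inducible and the constitutive cytosolic HSP90. Hsp90aa1 stood at 77.9, 71.3 and 55.6 CPM in the controls, 224, 158 and 71.1 CPM after aspirin, and 76.8, 53.9 and 72.7 CPM with the hydrogel, the profile seen in the ER genes. Its log2 fold change was 1.147 ± 0.39 for aspirin against control and -1.16 ± 0.39 for hydrogel against aspirin (edgeR adjusted p 0.753 and 0.453), and 47.5% of its 100-base windows occur in other annotated genes such as Gm12346. Hsp90ab1 went another way, with 555 CPM in aspirin replicate 1 against 970 to 1512 CPM in the other 8 libraries.

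Like Hsp90aa1, the cytosolic HSP40 cochaperones Dnaja1 and Dnajb1 were highest in aspirin replicates 1 and 2. Dnaja1 stood at 62.0, 57.4 and 59.1 CPM in the controls, 119.6, 134 and 65.0 CPM after aspirin, and 74.3, 61.9 and 80.8 CPM with the hydrogel, with every aspirin value above every control. Unlike Hsp90aa1, Dnaja1 in hydrogel replicates 1 and 3 lay above aspirin replicate 3. Dnajb1 stood at 14.03, 15.7 and 10.8 CPM, then 24.7, 21.5 and 11.0 CPM, then 12.1, 9.25 and 10.4 CPM, with a log2 fold change of -0.85 ± 0.31 for hydrogel against aspirin. Neither passed adjustment.

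Cryab and Bag3 were low in aspirin replicate 1, the library with few muscle transcripts, while Hspb1 there lay within the range of the other libraries. Cryab stood at 130, 111 and 175 CPM in the controls, 44.8, 152.5 and 168 CPM after aspirin, and 153, 103 and 129 CPM with the hydrogel. Bag3, its partner in filament maintenance, was at 38.03 CPM in aspirin replicate 1 and 89.5 to 145 CPM in the other 8. Hspb1 stood at 48.6, 82.2 and 95.4 CPM, then 62.2, 119.6 and 107 CPM, then 79.4, 51.4 and 76.6 CPM, and 42.7% of its 100-base windows are shared with the pseudogene Hsp25-ps1. The exons of Cryab overlap 252 bases of Hspb2 on the opposite strand. Cryab and Bag3 were lowest, and the summed muscle fibre markers 26510 CPM, in the same library. Whether fibre content plays a part was not tested. Hsf1 itself stood between 15.1 and 29.8 CPM in the 9 libraries, with a log2 fold change of -0.02 ± 0.33 for aspirin against control.

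The mitochondrial chaperonin Hspd1 and its cochaperonin Hspe1 share the stretch printed above, and their levels parted. Hspd1 stood at 152, 186 and 192 CPM in the controls, 106, 178 and 188.5 CPM after aspirin, and 181, 162 and 222 CPM with the hydrogel. Hspe1 stood at 33.7, 32.8 and 31.6 CPM, then 60.2, 59.5 and 33.8 CPM, then 36.1, 30.0 and 36.0 CPM. In aspirin replicate 1, Hspd1 was the lowest of the 9 libraries and Hspe1 the highest. The log2 fold changes against control were -0.17 ± 0.29 and 0.65 ± 0.24. On the GENCODE models the genes overlap by 112 exonic bases, and pseudogenes hold 26.9% of the windows of Hspd1.

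Further genes of the same pathways gave a broader view. Of 34 other tested ER folding genes, 26 had a fold change above 0 for aspirin against control, with a median log2 value of 0.35, and 5 did so for hydrogel against aspirin, with a median of -0.50. Over all genes 54.0% and 46.7% did. For hydrogel against aspirin 12 of the 34 were lower at an unadjusted p below 0.05 and 0 higher, against 7.61% of all genes lower. The count was 5 without aspirin replicate 1 (2.9% of all genes) and 18 without aspirin replicate 3 (12.7%). Dropping a hydrogel library gave 7 (replicate 2, 5.73%) or 6 (replicate 3, 3.09%). Without aspirin replicate 1 the medians were 0.17 and -0.27. Per library, their median log2 ratio to the control mean was 0.56, 0.34 and 0.00 in aspirin replicates 1, 2 and 3, and -0.15 to 0.07 in the other 6. None passed adjustment.

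The named genes of this group did not all share the aspirin profile. Txndc5, an isomerase abundant in secretory cells, stood at 34.5, 60.6 and 34.8 CPM in the controls, 99.9, 76.5 and 29.7 CPM after aspirin and 24.7, 26.1 and 23.6 CPM with the hydrogel. Pdia5, Fkbp10 and Rcn3, the last 2 of which serve collagen-making cells, were lowest with the hydrogel. Their log2 fold changes against control were -0.58 ± 0.23, -0.84 ± 0.22 and -0.58 ± 0.23, each with an adjusted p of 0.987 in edgeR. Of the 34 genes, 13 lay above 0 for hydrogel against control, with a median of -0.06 (all genes 47.1% and -0.03). At an unadjusted p below 0.05, 3 were lower and 0 higher, against 2.18% and 1.74% of all genes. For Fkbp10 the hydrogel values of 21.3, 18.6 and 14.3 CPM lay below every other library, at 25.1 to 37.0 CPM, and aspirin differed from control by 0.11 ± 0.22.

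Of 51 other cytosolic chaperone genes, 30 had a fold change above 0 for aspirin against control and 30 for hydrogel against aspirin. Over all genes 54.0% and 46.7% did. The medians were 0.03 and 0.07, close to the 0.05 and -0.05 of all genes. The second was -0.33 with scaling by library size alone, and leaving out aspirin replicate 2 gave -0.10 and 0.22. In aspirin replicate 1 their median ratio to the control mean was -0.47, and 15 of 51 lay more than 2-fold below it. Pfdn5, a prefoldin subunit, was the gene of this group with the smallest p in the test of any difference, at 84.4, 69.9 and 106 CPM in the controls, 162, 139 and 97.6 CPM after aspirin and 91.5, 73.1 and 75.0 CPM with the hydrogel. Of 20 other mitochondrial proteostasis genes, 5 lay above 0 and 15 below 0 for aspirin against control, with a median of -0.15, where 54.0% of all genes lay above 0. That median was -0.01 without aspirin replicate 1, where their ratio to the control mean had a median of -0.78, and 0.01 with scaling by library size alone.

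Of 35 other ER degradation and translocation genes, 23 lay above 0 for aspirin against control, with a median of 0.095 (all genes 54.0% and 0.046). Ube2g2, a ubiquitin-conjugating enzyme of this pathway, had the smallest p of these 35 genes in the test of any difference. Its aspirin values of 33.9, 41.2 and 32.4 CPM lay below all controls (57.7 to 86.7 CPM) and all hydrogel libraries (72.4 to 83.7 CPM). The adjusted p in edgeR was 0.747 for aspirin against control and 0.453 for hydrogel against aspirin. Derl3, known from plasma cells, stood at 5.61 CPM in aspirin replicate 1 and at 0.0873 to 0.581 CPM in the other 8, near the floor of 3 counts. Of 39 other genes of the unfolded protein and integrated stress responses, 21 (53.8%) lay above 0 for aspirin against control, with a median of 0.05. This was near the 54.0% and 0.046 of all genes. For hydrogel, 10 of 39 lay above 0 against control (median -0.19) and 13 of 39 against aspirin (median -0.26). Over all genes 47.1% (median -0.03) and 46.7% (median -0.05) did. Mthfd2, a mitochondrial folate enzyme under ATF4, was highest in aspirin replicate 3, at 40.0 CPM against 2.77 to 13.2 CPM in the other 8, the library in which Atf5 was also highest.

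Marker lists of other cell types differed in how far they followed the ER folding genes across libraries. The summed level of 12 monocyte and macrophage markers was 2970 and 2746 CPM in aspirin replicates 1 and 2 and 568.2 to 1692 CPM in the other 7, the same 2 libraries that held the highest summed ER folding level, 2751 and 2418 CPM against 1050 to 1530 CPM. Each of the 12 markers was above 0 counts in every library, and all 12 had a fold change above 0 for aspirin against control, with a median log2 value of 1.17. The sum of 10 fibroblast markers was 12460 and 13160 CPM in these 2 libraries, 12710 CPM in control replicate 1 and 5326 to 8984 CPM in the other 6. B and plasma cell markers were at 8437 CPM in aspirin replicate 1 and at 79.86 CPM, with Ms4a1 at 0 counts, in aspirin replicate 2, which shared its ER median of 0.89. The sum of 9 endothelial markers was lowest in aspirin replicates 1 and 2, at 233.1 and 265.6 CPM against 342.3 to 692.5 CPM. Neutrophil markers summed to 319.1, 16.35 and 123.1 CPM in aspirin replicates 1, 2 and 3. The red blood cell and myogenic progenitor sums were highest in control replicate 3, at 6189 and 898.7 CPM. The adipocyte sum was highest in control replicate 2, at 4578 CPM. The part of cell content in the ER difference was not tested.

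**Figure D5:**
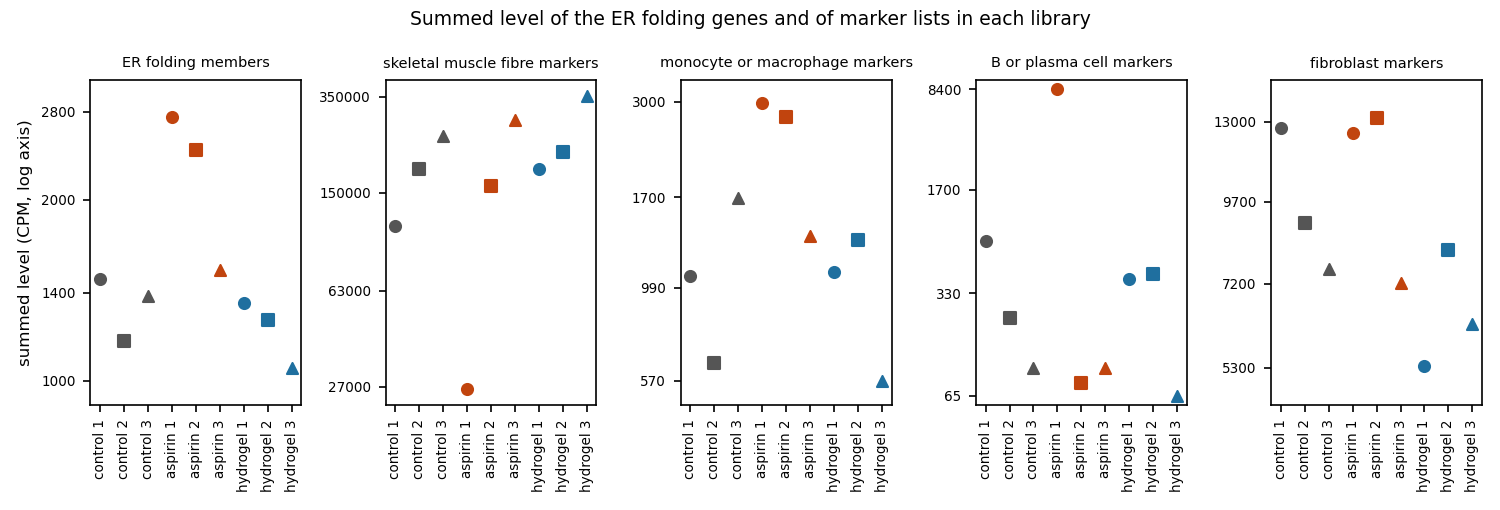
Summed level in CPM (vertical axes, logarithmic, 1 scale per panel) of the 14 ER folding genes and of 4 marker lists in each library (horizontal axes), coloured by group. Aspirin replicates 1 and 2 are the 2 highest for ER folding genes and for macrophage markers, whereas B and plasma cell markers are high in aspirin replicate 1 alone.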

How the data were processed

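Total RNA of leg muscle from 9 mice was sequenced after SMARTER mRNA library preparation, per the labels' protocols, and samples were grouped by the treatment labels, 3 per group. The authors deposited a table of whole-number counts per gene, not normalised, and a table of FPKM values (per gene length and library size) for the same samples. The build is mm10, per the submitters' processing notes, while for the aligner, counting tool, annotation and strand setting the entry is "not given in the sources used here". Gene positions come from GENCODE vM21 on the same build, and promoters from RefSeq on GRCm38.p6.

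Counts were tested with edgeR 4.0.16 (R 4.3.3), a quasi-likelihood fit of all 9 libraries with group as the term, TMM scaling and filterByExpr (minimum count 10, total 15), with Benjamini-Hochberg adjustment over 18259 genes. Levels are CPM on TMM-scaled library sizes, without a pseudocount in the printed values, with intervals at 95%. Variation between mice of a group, as edgeR's common biological coefficient, was 0.503. The fit was also run on simulated counts, with gene means shared by all libraries apart from the genes changed. The outcome is not given here, and these counts lacked the differences in composition between the real libraries. No pair of libraries of a group agreed within sampling noise (smallest chi-square per degree of freedom 74.6).

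The genes followed and all lists were chosen with earlier results of these data known, so lists are described by counts and medians beside those of all genes. Values in every library are given for members with an unadjusted p below 0.05 in a comparison and for 15 anchors. Up to 4 genes per further list were eligible by the smallest p in the test of any difference. Hsph1, Bag3, Hsp90ab1, Atf5, Eif2ak3, Hspa4, Calr and Herpud1 are given single library values chosen after they were seen. Alternatives were library size alone, DESeq2 size factors, DESeq2 1.42.0 as the test, no filter, a replicate block, the 2 groups compared alone, and each library left out. Deviations of same-numbered control and aspirin libraries had correlations of 0.61, 0.11 and 0.23 over 14114 genes, each above the limit of 0.1 set for pairing. Differently numbered libraries reached similar values. Control replicate 3 and aspirin replicate 2 reached 0.40, and hydrogel replicate 2 reached 0.55 with control replicate 1 and with aspirin replicate 1. Control replicate 2 correlated more with aspirin replicate 3 (0.23) than with aspirin replicate 2. These values therefore do not establish a pairing. The printed tests have no block, and the blocked fit is an alternative. Hydrogel replicate 2 deviated against control replicate 2 (-0.24) and aspirin replicate 2 (-0.39).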

Additional observations from a re-analysis of the deposited data

How the results depend on the processing

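None of the 41 genes passed the adjusted threshold under any alternative. DESeq2 called 102 genes for aspirin against control, 18 for hydrogel against control, 156 for hydrogel against aspirin and 151 for any difference, and found 1 of the 41 at an unadjusted p below 0.05 for hydrogel against control. With the 2 groups alone, 7 of the 41 had an unadjusted p below 0.05 for aspirin against control. With the replicate block, 1 gene was called for hydrogel against aspirin, and it changed no other call. Scaling by library size alone gave ER folding medians of 0.94 for aspirin against control and -1.41 for hydrogel against aspirin, a cytosolic median of -0.82 and 24 of the 41 at an unadjusted p below 0.05 for hydrogel against aspirin, where 13.6% of all genes were lower in place of 7.61%. Leaving out single libraries gave 0 to 2 called genes for hydrogel against aspirin and 0 to 1 for any difference. The count at an unadjusted p below 0.05 was 5 to 18 for aspirin against control, 0 to 1 for hydrogel against control and 7 to 18 for hydrogel against aspirin. Cytosolic medians ran from 0.105 to 0.697 for aspirin against control, -0.049 to 0.238 for hydrogel against control and -0.616 to 0.134 for hydrogel against aspirin. The ER folding medians ran from 0.545 to 0.871, -0.253 to -0.001 and -1.129 to -0.649, and the ER minus cytosolic difference from -0.079 to 0.468, -0.358 to 0.008 and -0.907 to -0.102. Sign changes touched 4, 15 and 6 of 25 genes in the 3 comparisons (aspirin against control, hydrogel against control, hydrogel against aspirin), and none passed the threshold. With library size alone, hydrogel against control gave Sdf2l1 -0.14, Xbp1 -0.15, Atf4 -0.17, Ddit3 -0.10, Hspa1a -0.0549, Hspa1b -0.25, Hspa8 -0.0348, Hspd1 -0.14 and Hspe1 -0.18, and hydrogel against aspirin gave Cryab -0.21 and Hspd1 -0.14. With the replicate block, hydrogel against control gave Hspa1b -0.10 and Hsp90aa1 0.022. Leaving out libraries for aspirin against control gave Hspa1a -0.457 to 1.43, Hspa1b -0.384 to 1.634, Cryab -0.495 to 0.201 and Hspd1 -0.309 to 0.043. For hydrogel against aspirin it gave Ern1 -0.14 to 0.057, Hspa1a -1.191 to 0.701, Hspa1b -1.608 to 0.415, Hspa8 -0.529 to 0.024 and Cryab -0.316 to 0.375. For hydrogel against control it gave Hsp90b1 -0.139 to 0.049, Manf -0.363 to 0.111, Creld2 -0.197 to 0.028, Sdf2l1 -0.312 to 0.403, Xbp1 -0.063 to 0.136, Atf4 -0.094 to 0.159, Ddit3 -0.224 to 0.206, Hspa1a -0.081 to 0.454, Hspa1b -0.329 to 0.43, Hspa8 -0.018 to 0.476, Hsp90aa1 -0.139 to 0.132, Hspb1 -0.36 to 0.085, Cryab -0.265 to 0.084, Hspd1 -0.059 to 0.194 and Hspe1 -0.00195 to 0.142. The cause of these shifts was not tested. Counts of these genes were far above the floor of 3, and 3 mice per group limit the precision.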
